A study of Mus musculus with 36 samples.

Results

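The control line of a mouse embryonic stem cell series was compared at day 5 and day 3 of differentiation, a step that resembles gastrulation. The comparison rests on 6 of the 36 libraries of the series, chosen by line and day, with 3 libraries at day 5 and 3 at day 3. Both groups are AB2.2 cells, a mouse embryonic stem cell line, carrying no LncCPR deletion and labelled as control. Both were grown as embryoid bodies, free-floating aggregates made in hanging drops of serum medium from which the cytokine LIF had been withdrawn, and RNA came from whole embryoid bodies collected 5 or 3 days after the drops were set. The other 30 libraries cover the same line at days 0, 8, 10 and 12 and an AB2.2 line lacking LncCPR, a long noncoding RNA, at all 6 days. That LncCPR-/- line is used here at days 5 and 3, with 3 libraries each. It was made with Cas9 and a pair of constructs cutting on either side of the gene, from singly sorted cells that were expanded, and the number of clones behind the libraries is not given in the sources used here.

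In the mouse embryo, gastrulation begins when Nodal, Wnt and BMP signals induce the primitive streak in the epiblast. Cells that pass through the streak lose pluripotency, undergo an epithelial to mesenchymal transition and become mesoderm or definitive endoderm. Cardiac mesoderm is among the first mesoderm to leave the streak and is marked by a short pulse of the transcription factor Mesp1. Embryoid bodies pass through a comparable sequence without the spatial order of an embryo.

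Values are FPKM, sequenced fragments scaled by transcript length and by the library's total, so levels are per length and can be set beside each other between genes. Gene entries numbered 37561, of which 12230 averaged at least 1 FPKM across the 6 libraries and were tested. Fold changes are differences of the mean log2(FPKM + 1), day 5 minus day 3, which understate the change of genes near 0. The test was limma over all tested genes, with the Benjamini-Hochberg adjustment and a threshold of 0.05. The labels number the replicates without saying that they came from separate cultures, so p-values measure only the spread between these libraries, which may be technical. The libraries of the 2 days stand in different deposited tables that may have been scaled separately, and any effect of the table cannot be told apart from the day. The labels do not say whether the 2 days came from the same culture. A difference between cultures could therefore not be told apart from the day for any gene.

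The 6 libraries summed to 294740 to 400674 FPKM, and the absolute depth is unknown. Low values gave a relative depth of 2.82, 1.60 and 1.85 at day 5, against 1.0, 1.36 and 1.29 at day 3, in units of the shallowest library. Libraries of the same day correlated across genes at 0.970 to 0.987, and libraries of different days at 0.906 to 0.926. Day 5 replicate 1 and day 3 replicate 2 stood apart: 709 gene entries were above 0 in only these 2 of the 6 libraries, against 27 to 113 for the other pairs across days. Day 3 replicate 1 had the lowest scaling factor, 0.71 against 1.01 to 1.13 in the others. Its 10 most abundant entries held 30.1% of the FPKM sum. The mitochondrial ribosomal RNA mt-Rnr2 was listed at 0, 0 and 0 FPKM at day 5, against 38460, 49730 and 0 FPKM at day 3. No other of the 13 tested entries of the mitochondrial genome passed the threshold.

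Between the 2 days 1799 genes rose and 707 fell, 14.7% and 5.78% of the genes tested, and 2506 or 20.5% changed in either direction. Of these, 781 rose and 321 fell by more than 2-fold. Rescaling the libraries by median-ratio size factors lowered the median change of all genes by 0.16 and gave 2395 higher and 2715 lower genes, 19.7% and 22.3% of 12184. The share of calls that were higher was then 46.9%, against 71.8% without rescaling. Leaving out day 3 replicate 1 alone gave 2087 higher and 2270 lower genes, so the balance of rises and falls rested on that library. Leaving out day 5 replicate 3 alone gave 1117 higher and 561 lower genes. Of the genes called without rescaling, 1702 rose and 690 fell in both, and 0 turned sign. Medians of gene lists are therefore given relative to the median of all genes, 0.14.

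**Figure D1:**
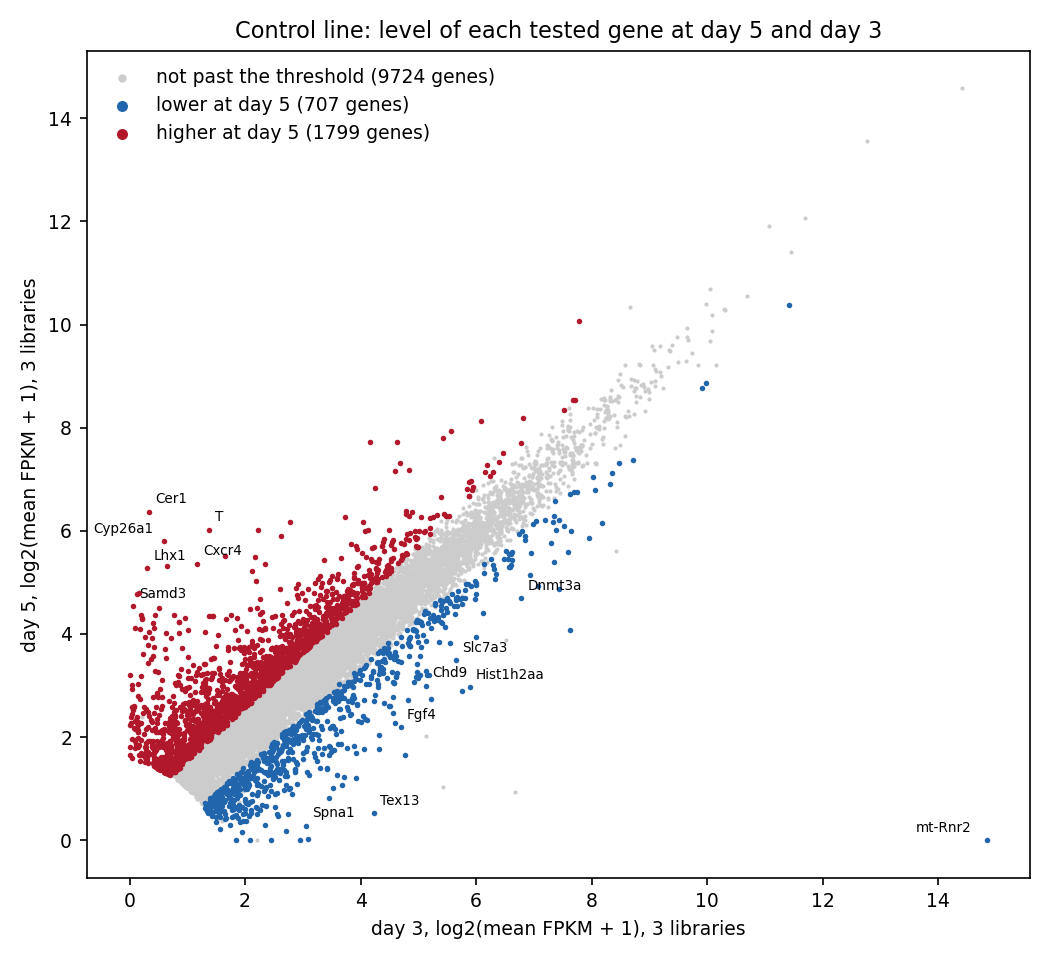
Mean level of each of the 12230 tested genes in the control line at day 5 (vertical axis) and day 3 (horizontal axis), both as log2(FPKM + 1) over 3 libraries, with 1799 genes past the threshold higher at day 5 in red and 707 lower in blue. The named rises lie near 0 on the day 3 axis, and the point at the lower right is mt-Rnr2, which 2 of the 3 day 3 libraries list at 38460 and 49730 FPKM.

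The 12 largest rises, by a rule that required 5 FPKM in the higher group and no overlap between the days, were Cer1, Cyp26a1, Lhx1, T, Foxa2, Aplnr, Cfc1, Samd3, Cxcr4, Sox17, Frzb and Pcdh7. They rose by 4.08 to 6.02 on the log2 scale. Cer1, a secreted antagonist of Nodal, BMP and Wnt made by anterior endoderm, had 67.8, 80.6 and 96.7 FPKM at day 5, against 0.274, 0.101 and 0.424 FPKM at day 3 (adjusted p = 1.54e-13, log2 fold change 6.02, SE 0.22). Cyp26a1, which degrades retinoic acid, had 49.0, 53.6 and 62.3 FPKM at day 5, against 0.220, 0.634 and 0.663 FPKM at day 3 (adjusted p = 8.24e-13, log2 fold change 5.22, SE 0.22). All day 5 libraries lay far above all day 3 libraries for both genes. Aplnr, the apelin receptor of early mesoderm, reached 23.9 to 28.9 FPKM at day 5 and stayed at 0.067 to 0.155 FPKM at day 3. Cfc1, a Nodal co-receptor, had 22.3 to 30.4 FPKM at day 5 and 0.073 to 0.154 FPKM at day 3.

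Promoter sequence is shown for 3 genes that rose, because their upstream windows hold letters recognised by factors of the pathways described here. Sequences are the 250 bases before the gene start, from RefSeq on GRCm38.p6, written 5′ to 3′ on the gene's strand. Capitals mark the 1 motif each gene is shown for: the retinoic acid repeat in Cyp26a1, the T-box motif in Frzb and the TCF/LEF site in Mesp1. The retinoic acid response element AGTTCANNNNNAGTTCA, a direct repeat, and the T-box motif AGGTGTG and TCF/LEF site CTTTGAT, bound by T and by Wnt effectors, were searched on both strands, as was the GATA site AGATAA. Cyp26a1 lies at chr19:37697558-37697807 on the + strand, Frzb at chr2:80447397-80447646 on the - strand and Mesp1, described below, at chr7:79793591-79793840 on the - strand.
Cyp26a1: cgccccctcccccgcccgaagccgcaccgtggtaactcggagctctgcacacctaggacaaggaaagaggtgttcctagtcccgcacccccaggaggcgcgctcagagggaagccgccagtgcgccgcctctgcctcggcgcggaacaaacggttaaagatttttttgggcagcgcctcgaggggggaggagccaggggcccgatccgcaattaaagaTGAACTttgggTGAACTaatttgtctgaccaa
Frzb: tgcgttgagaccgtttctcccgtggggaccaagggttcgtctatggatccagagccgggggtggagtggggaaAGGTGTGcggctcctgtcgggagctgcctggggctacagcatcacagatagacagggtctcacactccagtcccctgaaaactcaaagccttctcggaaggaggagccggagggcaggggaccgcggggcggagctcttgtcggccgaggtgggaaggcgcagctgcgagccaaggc
Mesp1: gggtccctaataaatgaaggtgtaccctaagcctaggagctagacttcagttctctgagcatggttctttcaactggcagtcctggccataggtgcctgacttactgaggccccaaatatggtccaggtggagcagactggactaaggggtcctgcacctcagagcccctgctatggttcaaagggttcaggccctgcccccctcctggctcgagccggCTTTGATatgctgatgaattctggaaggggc
The repeat in Cyp26a1 reads as the reverse complement, TGAACTNNNNNTGAACT, and occurred in 7 of all 32851 promoter windows, 0.0213%. The T-box motif occurred in 5.10% of all windows and in 3 of the 10 largest rises that have a window, Cyp26a1, Frzb and Samd3. In Cyp26a1 that match is the reverse complement CACACCT and is left in lower case above. The GATA site occurred in 9.99% of all windows and in 3 of those 10, Cfc1, Foxa2 and Samd3. The TCF/LEF site occurred in 3.21% of all windows and in 0 of the 10. The 10 genes have 12 windows, and a gene was counted if any of its windows matched. The counts of genes therefore differ in unit from the shares of windows. A match describes the letters only, and binding was not measured. The genes shown were chosen for their matches.

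Most tested genes of the primitive streak rose. Of 16 listed, 13 were tested, 12 rose and 0 fell, with a median 2.96 above that of all genes, and Wnt3a, Cdx1 and Fgf17 were below the filter. Members near 0 at day 3, such as Lhx1, Gsc, Evx1 and Sp5, passed the filter only through day 5. The count and median are therefore a description. T, Eomes, Fgf8, Wnt3, Wnt8a and Foxh1 averaged above 1 FPKM at day 3 and also rose. T (Brachyury), the T-box factor that defines the streak, had 50.6, 81.2 and 60.7 FPKM at day 5, against 1.12, 1.30 and 2.35 FPKM at day 3 (adjusted p = 1.28e-11, log2 fold change 4.66, SE 0.25). Eomes, a T-box factor that acts upstream of mesoderm and endoderm, had 58.4, 73.2 and 80.4 FPKM at day 5, against 3.88, 6.35 and 7.44 FPKM at day 3 (log2 fold change 3.40, SE 0.25). The highest day 3 library of either gene lay well below the lowest day 5 library. Mixl1, a streak homeobox factor, averaged 15.2 ± 2.45 FPKM at day 5 and 0.554 ± 0.193 FPKM at day 3 (SD, n = 3 each). Lhx1 and Gsc, homeobox factors of the anterior streak and organiser, rose by 4.96 and 3.12 on the log2 scale. Fgf8, which mesoderm cells need to leave the streak, averaged 36.5 ± 5.86 FPKM at day 5 and 3.35 ± 0.351 FPKM at day 3 (SD, n = 3 each). The member that did not pass was Nodal itself, at 8.92 FPKM on average at day 5 and 14.7 FPKM at day 3 (log2 fold change -0.64, adjusted p = 0.0736). After rescaling the count was 12 higher and 1 lower.

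Cardiac mesoderm genes rose as well. Of 18 listed, 11 passed the filter, and 11 rose. A gene near 0 at day 3 can pass the filter only through its day 5 level, so for lists such as this the count over tested genes is a description. The other 7 listed, Mesp2, Gata5, Isl1, Tbx5, Nkx2-5, Mef2c and Myocd, were below the filter, and several of these act later in the heart. Mesp1 was listed at 13.7, 16.9 and 18.1 FPKM at day 5, against 0.187, 0 and 0 FPKM at day 3 (adjusted p = 6.39e-12, log2 fold change 4.02, SE 0.20). Pdgfra, a growth factor receptor of early mesoderm, had 20.4, 22.5 and 22.4 FPKM at day 5, against 0.309, 0.412 and 0.535 FPKM at day 3 (log2 fold change 4.01, SE 0.20). For both genes every day 5 library lay far above every day 3 library. Kdr, the VEGF receptor of heart and blood precursors, had 19.03, 17.2 and 21.8 FPKM at day 5, against 4.47, 0.232 and 0.366 FPKM at day 3 (adjusted p = 1.09e-06, log2 fold change 3.27, SE 0.37). Day 3 replicate 1 carried most of the day 3 level, and it is the shallowest library and has the lowest scaling factor. Hand1, Hand2, Gata4, Gata6 and Tbx20, transcription factors of cardiac and lateral mesoderm, rose by 3.12, 2.65, 2.83, 3.46 and 2.16 on the log2 scale. In whole embryoid bodies, more cells of a type and more RNA per cell cannot be told apart.

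**Figure D2:**
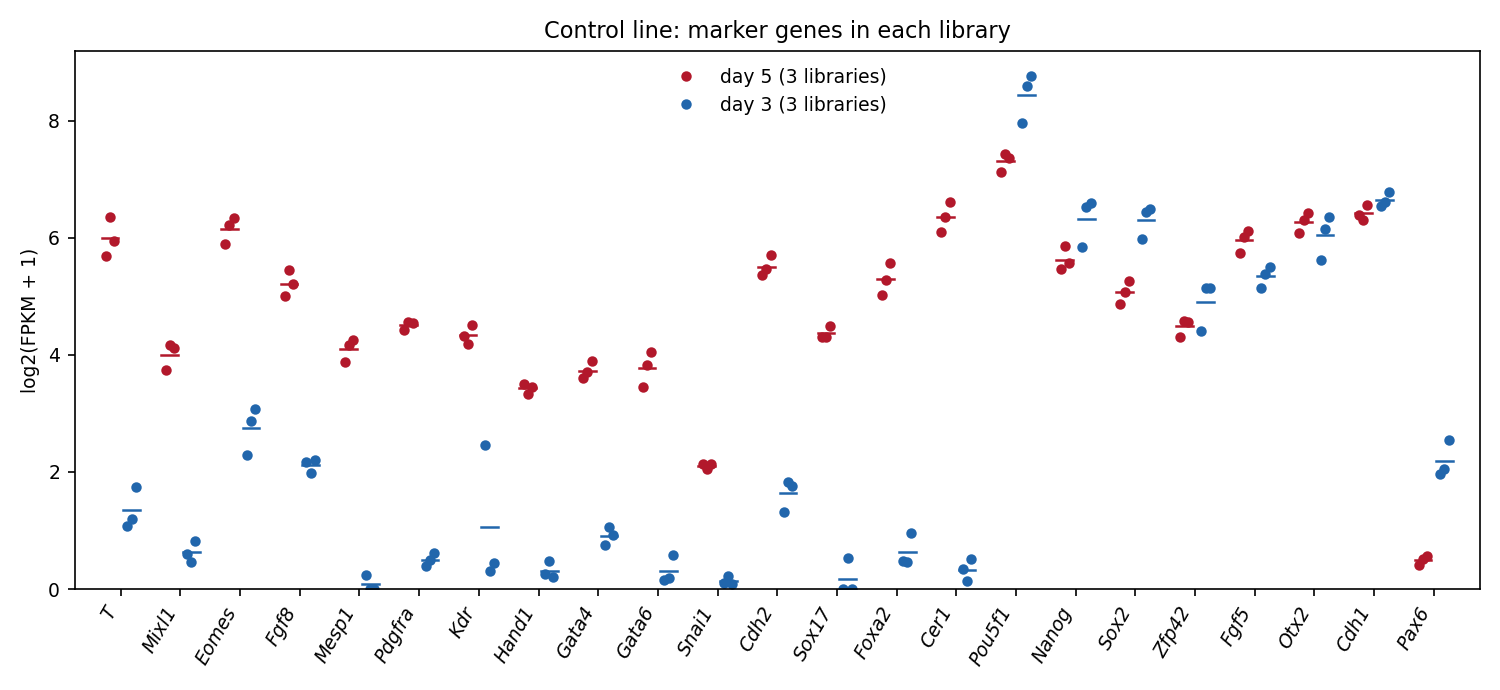
Level of 23 marker genes in each library of the control line, as log2(FPKM + 1), with day 5 in red left of day 3 in blue, 3 points per day and a line at their mean. Streak, cardiac mesoderm and endoderm genes from T to Cer1 have no overlap between days, while Nanog, Zfp42, Otx2 and Cdh1 overlap.

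Structural genes of cardiomyocytes were low on both days. Of 15 listed, 8 were tested, and 4 rose: Tnnc1, Myl3, Myl7 and Myh7. Myl7, the atrial myosin light chain, had 3.47, 5.27 and 5.34 FPKM at day 5, against 0.648, 1.00 and 0.994 FPKM at day 3 (log2 fold change 1.59, SE 0.21). Myh6, the alpha myosin heavy chain, averaged 0.910 FPKM at day 5 and 1.64 FPKM at day 3 and did not pass (adjusted p = 0.10), and Tnnt2, cardiac troponin T, stayed below the filter. Without day 5 replicate 1 and day 3 replicate 2, Myh7 no longer passed.

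Other mesoderm genes rose too. Of 16 paraxial mesoderm genes 8 were tested, with 7 higher and 1 lower. Rspo3, a Wnt amplifier, and the Notch ligands Dll3 and Dll1 rose by 3.57, 2.08 and 1.87 on the log2 scale, and Tcf15, a factor of somites that is also expressed in epiblast, fell by 1.73. Msgn1, a regulator of presomitic mesoderm, was listed at 2.83, 3.28 and 2.39 FPKM at day 5, against 0.210, 0 and 0 FPKM at day 3 (log2 fold change 1.84, SE 0.19). Tbx6, its partner in presomitic mesoderm, had 1.17, 1.48 and 1.32 FPKM at day 5, against 0.253, 0.529 and 0.122 FPKM at day 3, and its mean fell below the filter. Of 17 lateral plate and extraembryonic mesoderm genes 7 were tested and 7 rose, among them Msx1, Msx2 and Pmp22. After rescaling 8 were tested, with 7 higher and 1 lower. All 27 Hox and Cdx genes, which pattern the later trunk, were below the filter, with a summed level of 3.14 to 3.25 FPKM at day 5 and 1.61 to 3.15 FPKM at day 3.

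Blood and endothelial genes were mostly below the filter. Of 22 listed, 5 were tested, 1 rose and 2 fell, and the defining genes Tal1, Gata1 and Cdh5 did not exceed 0.927 FPKM in any of the 6 libraries. Flt1, a VEGF receptor, averaged 15.4 FPKM at day 5 and 1.47 FPKM at day 3 (log2 fold change 2.74, SE 0.22). Etv2, the factor that starts the endothelial programme, was lower, at 1.04, 1.47 and 1.82 FPKM at day 5, against 2.47, 4.29 and 6.95 FPKM at day 3 (adjusted p = 0.00259, log2 fold change -1.12, SE 0.25), a call lost without the filter (adjusted p = 0.11). Pecam1, an adhesion molecule of endothelium that stem cells also carry, fell by 1.39 on the log2 scale.

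Definitive endoderm genes also rose. Of 12 listed, 11 were tested and 10 rose, with a median 2.09 above that of all genes. Sox17, which specifies endoderm, was listed at 18.8, 18.9 and 21.5 FPKM at day 5, against 0, 0.443 and 0 FPKM at day 3 (adjusted p = 6.39e-12, log2 fold change 4.20, SE 0.21). Foxa2, a pioneer factor of endoderm and anterior streak, had 31.6, 37.7 and 46.8 FPKM at day 5, against 0.402, 0.385 and 0.939 FPKM at day 3 (log2 fold change 4.66, SE 0.23). Both genes were near 0 in all day 3 libraries. Cxcr4, the chemokine receptor used to sort definitive endoderm, rose by 4.25 and Hhex, a factor of anterior endoderm, by 2.23 on the log2 scale. Trh, which encodes thyrotropin-releasing hormone, was the tested member that did not pass, at 420.6 FPKM on average at day 5 and 424 FPKM at day 3. Foxa2, Cxcr4 and Sox17 also occur in other lineages, and of 8 tested visceral endoderm genes 5 rose. Spink3, a secreted protease inhibitor on that list, had 14.6, 23.5 and 15.4 FPKM at day 5, against 0.0389, 1.29 and 1.10 FPKM at day 3 (adjusted p = 6.1e-09, log2 fold change 3.43, SE 0.27). Afp and Ttr, defining genes of visceral endoderm, reached 2.68 and 5.28 FPKM at most at day 5. Afp passed with an adjusted p of 0.0214 and lost the call without day 5 replicate 3 (adjusted p = 0.211), after chromosome centring and without the filter, and Ttr lost it without the filter.

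Genes of the pluripotent state fell in part. Of 12 tested core pluripotency genes 7 fell and 0 rose, with a median 1.32 below that of all genes, and 9 fell after rescaling. Pou5f1 (Oct4) had 139, 171.4 and 163.8 FPKM at day 5, against 249.2, 386 and 431.7 FPKM at day 3 (adjusted p = 0.00933, log2 fold change -1.13, SE 0.30). Sox2, its partner, had 28.1, 32.7 and 37.4 FPKM at day 5, against 62.3, 85.4 and 89.4 FPKM at day 3 (adjusted p = 0.00125, log2 fold change -1.24, SE 0.26). Each fell without overlap between the days, and neither message was lost by day 5. Without the 2 libraries that stood apart neither passed, with adjusted p of 0.261 for Pou5f1 and 0.127 for Sox2, and Pou5f1 did not pass without the filter (adjusted p = 0.0734). Nanog had 43.0, 56.8 and 46.6 FPKM at day 5, against 56.6, 91.7 and 95.8 FPKM at day 3, and did not pass (log2 fold change -0.70, adjusted p = 0.0757). The lowest day 3 library, replicate 1, lay level with the highest day 5 library, and without it Nanog fell (log2 fold change -0.94, adjusted p = 0.000337). With all 6 libraries Nanog passed as lower after rescaling (adjusted p = 0.0003), with the replicate block (adjusted p = 0.00418) and after chromosome centring (adjusted p = 0.00197). Dppa2, Utf1, Dppa5a and Gdf3, other genes of pluripotent cells, fell by 2.58, 2.01, 1.89 and 1.88 on the log2 scale.

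Naive and formative genes were mixed. Of 11 tested naive genes 2 rose and 2 fell, and after rescaling 2 rose and 5 fell. Fgf4, the growth factor by which stem cells prime themselves for lineage entry, had 3.40, 3.41 and 3.90 FPKM at day 5, against 18.9, 24.4 and 31.2 FPKM at day 3 (log2 fold change -2.48, SE 0.23). Tbx3 and Dppa3, naive genes that are also used by mesoderm or endoderm and by germ cells, rose by 1.48 and 1.27, and Dppa3 lost the call without the filter (adjusted p = 0.0587). Of 15 tested formative and primed epiblast genes 2 rose and 6 fell, and after rescaling 4 rose and 9 fell. Pou3f1, a marker of early epiblast, fell by 1.77 on the log2 scale, while Fgf5, at 52.4 to 68.4 FPKM at day 5 and 34.5 to 44.4 FPKM at day 3, did not pass (adjusted p = 0.0896). Fgf5 passed as higher after rescaling (adjusted p = 0.0154), with the replicate block, after chromosome centring and without day 3 replicate 1. Of 5 tested neural genes 1 rose and 2 fell. Pax6, a factor of neural progenitors, had 0.333, 0.433 and 0.486 FPKM at day 5, against 2.89, 3.16 and 4.85 FPKM at day 3 (log2 fold change -1.69, SE 0.20).

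The 12 largest falls under the same rule were Tex13, Hist1h2aa, Spna1, Tmem54, Dppa2, Nefh, Cbr3, Fgf4, Lefty1, Chd9, Slc7a3 and Dnmt3a, and they fell by 2.09 to 3.69 on the log2 scale. Tex13, an X-linked gene named for its testis expression, had 0.540, 0.232 and 0.534 FPKM at day 5, against 13.3, 18.8 and 21.2 FPKM at day 3 (adjusted p = 7.25e-11, log2 fold change -3.69, SE 0.22). Dnmt3a, a de novo DNA methyltransferase, had 24.2, 21.2 and 29.3 FPKM at day 5, against 95.9, 108.2 and 123.1 FPKM at day 3 (log2 fold change -2.09, SE 0.25). Its cofactor Dnmt3l fell by 1.70, while the maintenance enzyme Dnmt1 averaged 62.0 FPKM at day 5 and 70.6 FPKM at day 3 and did not pass. Of 10 tested germline genes whose promoters are silenced by DNA methylation in the embryo, 0 rose and 7 fell, among them Ddx4, Mael and Dazl by 1.51, 1.37 and 1.29. After rescaling 10 fell.

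The signalling pathways differed. Of 15 tested BMP pathway genes 12 rose and 1 fell. The ligands Bmp5, Bmp7 and Bmp2 rose by 3.36, 3.17 and 2.87, the target genes Msx2, Id3 and Id1 by 2.32, 1.52 and 1.11, and the secreted modulators Bmper and Chrd by 2.49 and 1.68. Bmp7 had 13.4, 15.6 and 16.7 FPKM at day 5, against 0.589, 0.818 and 1.01 FPKM at day 3. The fall was Smad7, an inhibitor of both BMP and Nodal signalling. Of 15 tested Wnt pathway genes 12 rose and 0 fell: the ligands Wnt3 and Wnt5a rose by 2.15 and 2.07, the receptor Lgr5 by 2.14, the targets Sp5 and Axin2 by 2.89 and 1.21, and the antagonists Frzb and Dkk1 by 4.08 and 3.55. Dkk1 had 11.6, 15.5 and 15.7 FPKM at day 5, against 0.196, 0.216 and 0.493 FPKM at day 3.

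Nodal pathway genes went both ways. Of 13 tested, 4 rose and 5 fell. Lefty1, a Nodal antagonist and target, had 3.90, 4.99 and 2.55 FPKM at day 5, against 15.1, 27.2 and 27.7 FPKM at day 3 (adjusted p = 9.64e-07, log2 fold change -2.32, SE 0.26). Lefty2, its paralog, averaged 22.1 FPKM at day 5 and 38.2 FPKM at day 3 and did not pass (adjusted p = 0.0684). Cer1 and Furin, an antagonist and a proprotein convertase, rose, and Gdf3, Smad7, Skil and Pcsk6 fell with Lefty1. Tdgf1 (Cripto), the Nodal co-receptor, was abundant on both days, at 224.3 FPKM on average at day 5 and 179.8 FPKM at day 3 (adjusted p = 0.504). After rescaling 4 rose and 8 fell.

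Of 16 tested FGF pathway genes 6 rose and 4 fell, and after rescaling 7 rose and 6 fell. The ligands Fgf8, Fgf10 and Fgf3 rose by 3.10, 2.99 and 2.05, and the ligands Fgf4 and Fgf15 fell by 2.48 and 1.52. Of 9 tested Notch pathway genes 7 rose and 0 fell, with the target Hey1 up by 2.00 and the ligand Jag1 up by 1.80. In the retinoic acid pathway 4 of 9 tested genes rose and 3 fell. Aldh1a2, which makes retinoic acid, reached 1.78 to 2.06 FPKM at day 5, against 0.00444 to 0.242 FPKM at day 3, far below Cyp26a1. Dhrs3, a retinal reductase, fell by 1.00, with overlap between the days, and lost the call without day 5 replicate 3 (adjusted p = 0.051). The median of the list lay 0.18 above that of all genes, and 0.06 below it after rescaling.

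**Figure D3:**
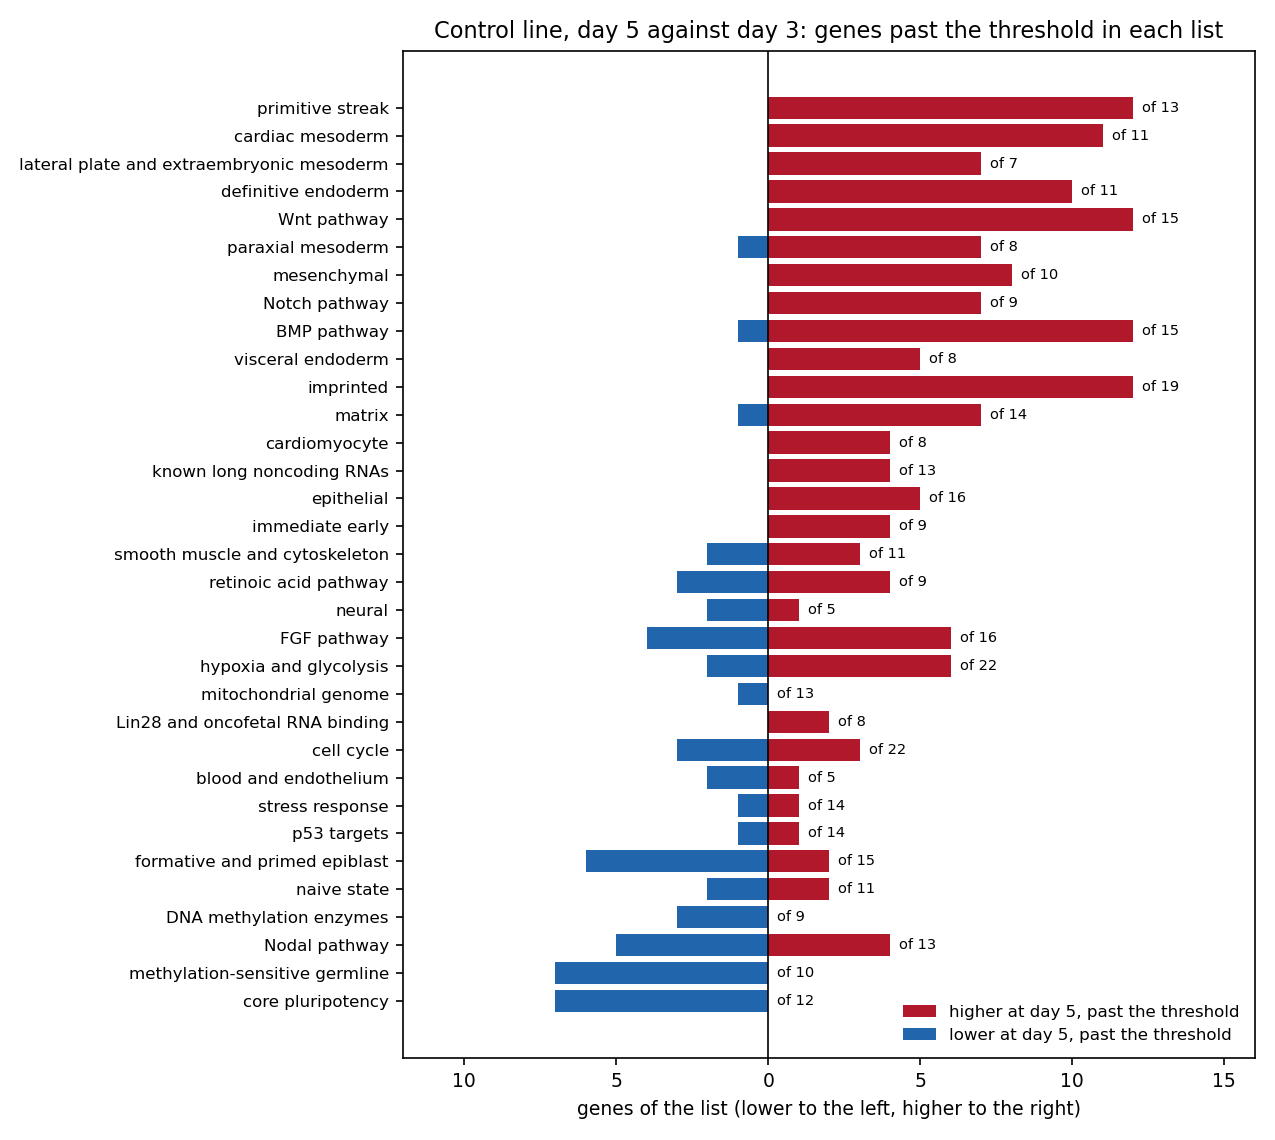
Number of genes past the threshold in each gene list with 5 or more tested genes, higher at day 5 to the right in red and lower to the left in blue, with the number tested beside each bar. Lists are ordered by their median relative to all genes, from primitive streak with 12 of 13 higher to core pluripotency with 7 of 12 lower.

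Mesenchymal genes rose, and most epithelial genes did not pass. Of 10 tested mesenchymal genes 8 rose and 0 fell. Snai1, the repressor that starts epithelial to mesenchymal transition, had 3.38, 3.16 and 3.40 FPKM at day 5, against 0.0784, 0.167 and 0.0598 FPKM at day 3 (log2 fold change 1.97, SE 0.19). Cdh2 (N-cadherin) averaged 44.8 FPKM at day 5 and 2.14 FPKM at day 3, a log2 fold change of 3.87. Cdh1 (E-cadherin) had 82.7, 77.8 and 93.3 FPKM at day 5, against 92.0, 96.7 and 108.5 FPKM at day 3 (log2 fold change -0.23, adjusted p = 0.60), and passed as lower after rescaling (log2 fold change -0.41, adjusted p = 0.0442). Epcam averaged 129.7 FPKM at day 5 and 149.5 FPKM at day 3. Both cadherins were thus abundant in the day 5 bodies, without showing whether in the same cells. Among 16 tested epithelial genes 5 rose and 0 fell, led by the keratins Krt8, Krt18 and Krt19 with 3.81, 2.41 and 2.21, while after rescaling 7 rose and 3 fell. The other 2 rises, the tight junction genes Cldn6 and Tjp3, lost the call without any 1 of the 3 day 5 libraries (adjusted p of 0.0685, 0.118 and 0.189 for Cldn6 and 0.0539, 0.159 and 0.21 for Tjp3), without day 3 replicate 2, without the 2 libraries that stood apart and without the filter. Of 14 tested matrix genes 7 rose and 1 fell. Fn1 (fibronectin) had 156.4, 131.3 and 142.7 FPKM at day 5, against 31.5, 24.9 and 26.1 FPKM at day 3 (log2 fold change 2.35, SE 0.25), and Col18a1 was the fall, a call lost without the 2 libraries that stood apart (adjusted p = 0.0813).

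Imprinted genes, expressed from the copy of a single parent, rose in 12 of 19 tested and fell in 0; after rescaling 13 rose and 3 fell. Igf2, a growth factor, had 41.9, 35.0 and 42.4 FPKM at day 5, against 4.21, 3.95 and 4.13 FPKM at day 3 (adjusted p = 1.7e-09, log2 fold change 3.00, SE 0.22). Peg3 and Peg10 rose by 2.60 and 2.56. H19, next to Igf2 and expressed from the other parental copy, rose by 0.86 and lost the call without day 5 replicate 3 (adjusted p = 0.135). The chromatin protein gene Hmga2 had 42.4, 40.9 and 48.3 FPKM at day 5, against 3.18, 3.54 and 3.76 FPKM at day 3, while the RNA-binding protein gene Lin28b did not pass.

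Of 22 tested cell cycle genes 3 rose and 3 fell, where 14.7% and 5.78% of all genes did. After rescaling 4 rose and 9 fell, where 19.7% and 22.3% of all genes did. The median of the list relative to all genes was -0.073, and -0.092 after rescaling. Of 14 tested p53 targets 1 rose and 1 fell, and of 14 tested stress genes 1 rose and 1 fell. After rescaling 1 and 1 rose while 11 of 14 and 8 of 13 fell, where 22.3% of all genes fell. These counts depended on the scale. The list medians relative to all genes hardly moved, at -0.513 and -0.479, and -0.534 and -0.465 after rescaling. Of 22 tested genes of hypoxia and glycolysis 6 rose and 2 fell, where 14.7% and 5.78% of all genes did. After rescaling 8 rose and 6 fell, where 19.7% and 22.3% of all genes did. The median of this list relative to all genes was 0.016, and 0.023 after rescaling. The rises were led by P4ha1, a collagen hydroxylase, and Vegfa, with 1.83 and 1.73. Small nucleolar RNAs moved with the day: of 101 tested 5 rose and 44 fell, with a median of -0.91. Their summed level was 2490, 7614 and 3754 FPKM at day 5, against 6374, 8490 and 9198 FPKM at day 3, and its part in the other results was not tested.

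For comparison, the control line's step was set against the same step in the LncCPR-/- line with an interaction term over 12 libraries. A scale shared by all libraries of a table cancels in this difference for genes well above 1 FPKM in all groups. It does not cancel for genes near 0 in some, because 1 is added before the logarithm. A difference between the control cultures of the 2 days would not cancel either, for genes of any chromosome. Of 12346 genes tested, 164 changed more positively in the control line and 116 more negatively, 1.33% and 0.94%, and 280 or 2.27% differed in all. In the LncCPR-/- line itself 2169 genes rose and 912 fell, 17.6% and 7.39% of the same genes and 25.0% in all. Rescaling gave 387 genes changing more positively and 585 more negatively in the control line, 3.14%, 4.75% and 7.9% in all of 12309, and leaving out control day 3 replicate 1 gave 230 and 659. Of the 280 genes, 18, 24 and 20 lay on chromosomes 1, 6 and 8, which held 667, 552 and 642 of the genes tested. The change was more positive in the control line for 16 of the 18 on chromosome 1, 6 of the 24 on chromosome 6 and 5 of the 20 on chromosome 8, the same directions as the shifts of these chromosomes described below. The level of LncCPR itself was not analysed here.

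Several cardiac mesoderm genes rose further in the control line. Of 18 listed, 10 passed the filter over the 12 libraries, and 9 of these had a larger rise in the control line. Genes such as Mesp1, Hand1 and Hand2 pass that filter mainly through their level in the control line at day 5, so this count is a description and supports no direction. Mesp1 averaged 16.2 FPKM at day 5 and 0.062 FPKM at day 3 in the control line, against 1.32 ± 0.506 FPKM at day 5 and 0.032 FPKM at day 3 in the LncCPR-/- line (SD, n = 3; difference of log2 changes 2.87, SE 0.25, adjusted p = 6.48e-06). Hand1 averaged 9.79 ± 0.669 FPKM at day 5 and 0.247 ± 0.126 FPKM at day 3 in the control line, against 0.435 ± 0.207 FPKM at day 5 and 0.216 ± 0.0884 FPKM at day 3 in the LncCPR-/- line (SD, n = 3 each; difference 2.88, SE 0.22, adjusted p = 2.59e-06). Hand1 thus barely moved in the LncCPR-/- line (log2 fold change 0.23, adjusted p = 0.32). Hand2, Kdr, Pdgfra and Gata4 differed in the same direction, by 2.53, 2.52, 2.39 and 1.71. The difference for Kdr did not pass after rescaling (adjusted p = 0.0614) or without control day 5 replicate 3 (adjusted p = 0.0541). Bmp5, the ligand of early mesoderm, averaged 11.3 ± 2.76 FPKM in the control line and 0.597 ± 0.226 FPKM in the LncCPR-/- line at day 5 (SD, n = 3 each; difference of log2 changes 2.71, SE 0.25). Dll1 moved in opposite directions: it rose by 1.87 in the control line and fell by 1.10 in the LncCPR-/- line (difference 2.97, SE 0.28).

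Streak genes rose less in the control line where they differed. Of 14 tested in the interaction, 0 rose further in the control line and 3 less far, T, Fgf8 and Wnt8a. T averaged 64.2 ± 15.6 FPKM at day 5 and 1.59 ± 0.665 FPKM at day 3 in the control line, against 125.4 ± 8.44 FPKM at day 5 and 0.256 ± 0.159 FPKM at day 3 in the LncCPR-/- line (SD, n = 3 each; difference -2.0, SE 0.28, adjusted p = 0.000815). Fgf8 and Wnt8a, signals of the streak, differed by -1.48 and -2.14. Nanog averaged 48.8 ± 7.16 FPKM at day 5 and 81.4 ± 21.5 FPKM at day 3 in the control line, against 92.1 ± 7.21 FPKM at day 5 and 44.9 ± 2.27 FPKM at day 3 in the LncCPR-/- line (SD, n = 3 each; difference -1.72, SE 0.28, adjusted p = 0.00223). After chromosome centring, which removes the shift of its chromosome, the difference for Nanog was -1.49 (adjusted p = 9.78e-05). Tex13 differed through its level at day 3, which averaged 17.8 FPKM in the control line and 0.394 FPKM in the LncCPR-/- line. Cer1, Foxa2, Mixl1, Eomes and Sox17 did not pass this test, with adjusted p of 0.221, 0.313, 0.773, 0.195 and 0.0676. After rescaling Eomes and Sox17 passed, with adjusted p of 0.00378 and 0.0116. Their differences went opposite ways, at -0.82 and 0.86 without rescaling: Eomes rose less in the control line and Sox17 rose further.

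**Figure D4:**
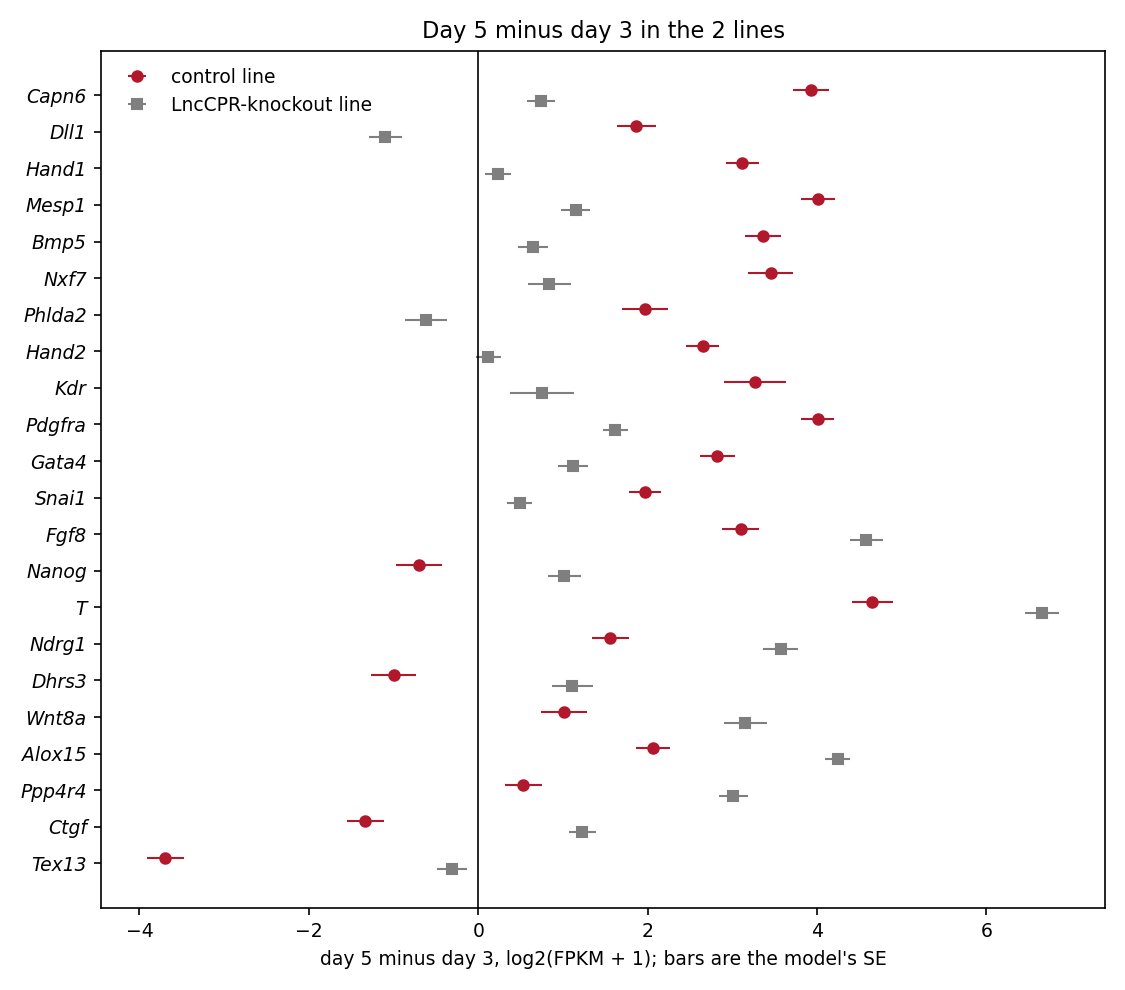
Day 5 minus day 3 on the log2(FPKM + 1) scale for the 22 named genes whose change differed between the lines, with the control line as red circles above the LncCPR-/- line as grey squares, and bars for the standard error of each fit. Control changes lie to the right for the 12 upper genes, from Capn6 to Snai1, and to the left for the 10 lower genes, from Fgf8 to Tex13.

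Whole chromosomes also moved between the control libraries of the 2 days. For each library, the median deviation of a chromosome's genes from their mean over the 6 libraries was taken relative to the other chromosomes, using the GRCm38 annotation by gene identifier. Chromosome 8 stood at -0.128, -0.116 and -0.137 at day 5, against 0.130, 0.128 and 0.125 at day 3, over 640 genes. Chromosome 6 stood at -0.108, -0.097 and -0.096 at day 5, against 0.082, 0.128 and 0.096 at day 3, over 552 genes. Chromosome 1 went the other way, at 0.091, 0.122 and 0.097 at day 5, against -0.094, -0.099 and -0.125 at day 3, over 663 genes. In none of these 3 did the days overlap, and their median fold changes lay -0.23, -0.20 and 0.22 from those of the other chromosomes. An exact permutation test of 3 against 3 libraries cannot go below 0.1, so these are descriptions. The 17 other chromosomes besides Y lay between -0.03 and 0.10, and 7 of them also had no overlap, chromosome 9 having the largest shift among them. As differences of the mean library values, day 5 minus day 3, the control shifts were -0.255, -0.202 and 0.21 for chromosomes 8, 6 and 1. In the LncCPR-/- line this measure gave -0.04, 0.06 and 0.02 for them. The largest shifts of that line were 0.129 for X and -0.117 for Y, against 0.06 and 0.598 in the control line.

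The shifts touched the counts of single genes. On chromosome 1, 25.2% of tested genes rose and 4.07% fell, against 14.7% and 5.78% over all chromosomes. On chromosome 8, 51 rose and 59 fell. Of the 3 tested genes on chromosome Y, Ddx3y rose by 0.89 and Uty by 0.84, while Eif2s3y averaged 41.1 FPKM at day 5 and 37.7 FPKM at day 3 and did not pass. Ddx3y had 13.9, 18.9 and 17.4 FPKM at day 5, against 5.45, 10.1 and 11.1 FPKM at day 3, and its call, like that of Uty, was lost without day 5 replicate 2 (adjusted p = 0.0629 and 0.0612), and Uty also lost it without day 5 replicate 3 (adjusted p = 0.0627). Without genes on chromosomes 1, 6, 8 and Y, 1470 genes rose and 546 fell of 10372. The fold change of a gene on these chromosomes includes its chromosome's shift. Within the control line culture, table and day cannot be told apart for these genes or for those of other chromosomes. The LncCPR-/- libraries stand in the same 2 tables, and their shifts were -0.04, 0.06 and 0.02 for chromosomes 8, 6 and 1. The cause of the shifts was not tested.

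The same measure was taken over all 36 libraries, with no test. Chromosome 8 averaged 0.228 at day 0 and 0.215 at day 3 in the control line, then -0.030, -0.043, -0.053 and -0.061 at days 5, 8, 10 and 12. Chromosome 6 took the same course, with 0.214 and 0.169 at days 0 and 3 and values between -0.042 and -0.009 from day 5 on. Chromosome 1 averaged -0.118 and -0.082 at days 0 and 3 and 0.138 at day 5, and it was higher again at day 8, at 0.203, without overlap between the libraries of days 5 and 8. At days 10 and 12 it averaged 0.232 and 0.221. In the LncCPR-/- line chromosomes 6 and 8 stayed between -0.093 and -0.012 at all 6 days. Chromosome 1 was higher at each later day in that line. It averaged -0.203, -0.165, -0.127, -0.071, -0.059 and -0.040 at days 0, 3, 5, 8, 10 and 12.

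**Figure D5:**
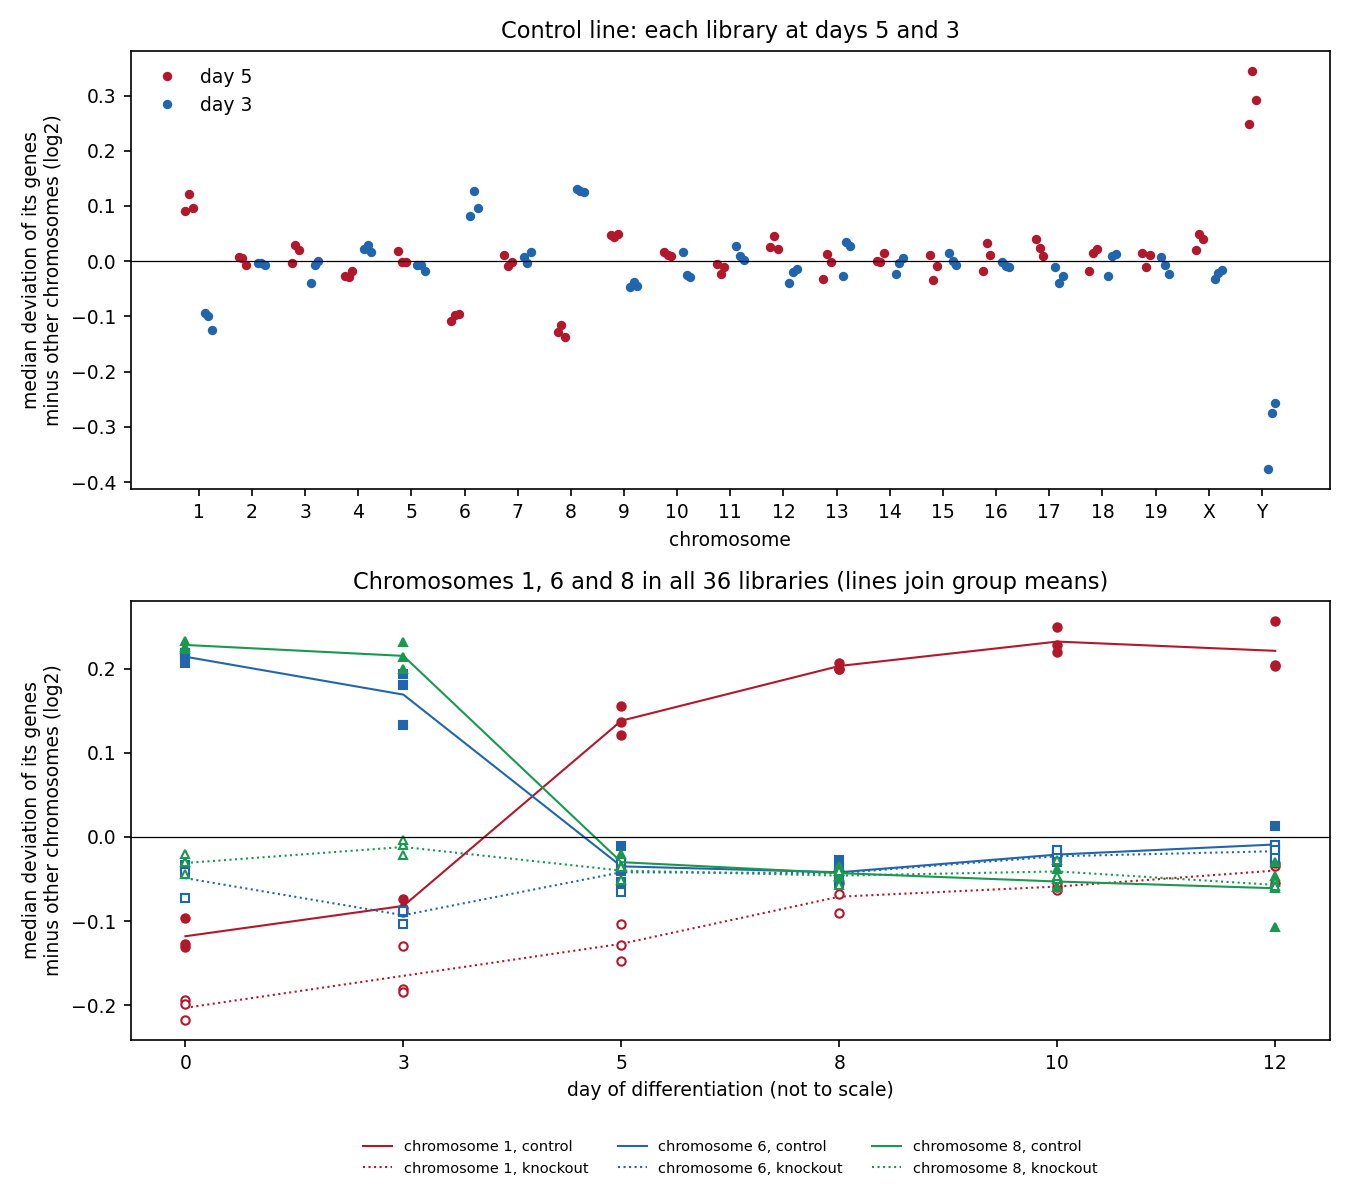
Upper panel, median log2 deviation of each chromosome's genes relative to the other chromosomes in each control library at day 5 (red, left) and day 3 (blue, right). Lower panel, the same measure for chromosomes 1, 6 and 8 in all 36 libraries by day, with filled symbols and solid lines for the control line and open symbols and dotted lines for the LncCPR-/- line; the control values differ most between days 3 and 5.

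Levels before and after the step are given without a test, because each day is a table of its own. T averaged 0.282, 1.59, 64.2 and 3.09 FPKM in the control line at days 0, 3, 5 and 8. Mesp1 stood at 0.068, 0.062, 16.2 and 0.637 FPKM on average at these days, and Cer1 at 0.196, 0.266, 81.7 and 5.52 FPKM. Each of these 3 genes was highest at day 5. Hand1 averaged 0.354, 0.247, 9.79 and 40.2 FPKM and Igf2 3.44, 4.10, 39.8 and 770.8 FPKM, so both were higher again at day 8. Pou5f1 averaged 505.4, 355.6, 158 and 26.0 FPKM at the same days, lower at each. Dnmt3a peaked at day 3, with 32.7, 109.1, 24.9 and 26.5 FPKM.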

How the data were processed

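RNA of whole embryoid bodies was sequenced from libraries made with a total RNA kit that removes ribosomal RNA, per the labels' protocols. The authors deposited FPKM values in 6 tables, 1 per day, of 37561 gene entries each. TopHat, Cufflinks and the mouse build mm9 were used, per the submitters' processing notes; versions, the annotation and any scaling between tables are not given in the sources used here. FPKM carries no read count, so no interval that needs counts is given. An FPKM of 0 can be a failed Cufflinks estimate: 8 values were 0 although the other libraries of the same day held at least 5 FPKM.

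Control libraries of days 5 and 3 were joined by gene entry. Those averaging at least 1 FPKM were tested on log2(FPKM + 1) with limma 3.58.1 in R 4.3.3 (lmFit, eBayes with trend), two-sided, over all genes tested. Neither comparison had covariates. The interaction used the 12 libraries of both lines. Chromosomes came from GENCODE vM21 (GRCm38), which matched 32616 entries, and no coordinates of mm9 were converted. Relative depth compares the low values of each library with those of day 3 replicate 1, by their modal ratio. The modal bin held 53 to 88 genes, of 337 to 753 compared. Python 3.11.15, pandas 2.3.3, numpy 2.4.6 and matplotlib 3.10.9 were used, and the code was tested on simulated data.

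Genes were named by rule: the 12 largest rises and 12 largest falls past the threshold without overlap between the days and with 5 FPKM in the higher group, leaving out small RNAs and entries without an assigned symbol; up to 5 members of each list with at least 2 past the threshold; 24 panel markers, of which Sox1 matched no entry; and the 8 most positive and 8 most negative differences between lines. Other list members are named outside this rule after their values were seen, such as Nodal, Lefty2, Tdgf1, Dnmt1, Epcam, Trh and members below the filter. The 36 lists of 522 genes, the members and the comparison were chosen with earlier results of these data known. Alternatives were median-ratio rescaling, a pseudocount of 0.1, no filter, a filter at 5 FPKM, leaving out each library, a replicate block, chromosome centring, larger fits, no genes of chromosomes 1, 6, 8 and Y and, chosen after seeing the data, leaving out 2 libraries together and rescaling with each library left out.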

Additional observations from a re-analysis of the deposited data

Results flagged for a closer look

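The 22 genes below were singled out because their change from day 3 to day 5 differed between the lines by limma's interaction test, with all adjusted p under the threshold of 0.05; values are the control line's change minus that of the LncCPR-/- line, on the log2(FPKM + 1) scale. Changes were more positive in the control line for regulators and receptors of cardiac mesoderm: Hand1 (2.88), Mesp1 (2.87), Hand2 (2.53), Kdr (2.52), Pdgfra (2.39) and Gata4 (1.71). The same held for the Notch ligand Dll1 (2.97), the BMP ligand Bmp5 (2.71) and the repressor Snai1 (1.48). Capn6 (3.19) and Nxf7 (2.61), both X-linked, and the imprinted gene Phlda2 (2.59) also changed more positively in the control line. Capn6, which encodes a calpain family member, averaged 19.5 ± 1.80 FPKM at day 5 and 0.360 ± 0.249 FPKM at day 3 in the control line, against 1.06 ± 0.195 FPKM at day 5 and 0.231 ± 0.110 FPKM at day 3 in the LncCPR-/- line (SD, n = 3 each).

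Changes were more negative in the control line for the streak genes T (-2.0), Fgf8 (-1.48) and Wnt8a (-2.14) and for Nanog (-1.72, or -1.49 after chromosome centring). The other 6 were Tex13 (-3.38), Ctgf (-2.56), a matrix-associated growth factor gene, Ppp4r4 (-2.48), a phosphatase subunit, Alox15 (-2.18), a lipoxygenase, Dhrs3 (-2.11) and Ndrg1 (-2.01). Ctgf moved in opposite directions, with 6.85 ± 1.38 FPKM at day 5 and 18.6 ± 1.64 FPKM at day 3 in the control line, against 14.8 ± 1.14 FPKM at day 5 and 5.77 ± 0.880 FPKM at day 3 in the LncCPR-/- line (SD, n = 3 each). Alox15 averaged 7.80 ± 1.36 FPKM at day 5 and 1.08 ± 0.0431 FPKM at day 3 in the control line, against 22.0 ± 0.880 FPKM at day 5 and 0.216 ± 0.0791 FPKM at day 3 in the LncCPR-/- line (SD, n = 3 each). Directions held under all alternatives that were run, and calls were lost for Ndrg1 and Snai1 with a pseudocount of 0.1 (adjusted p = 0.0709 and 0.0618) and for Kdr under 5 alternatives.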

How the results depend on the processing

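Most counts moved with the processing, and the directions of the named genes did not: of 158 named genes tested, none reversed under any alternative, 152 passed the threshold, 149 of these also passed after rescaling and 118 passed under all 16 alternatives in which they could be tested. Genes past the threshold at day 5 against day 3 numbered 5110 in all and 2715 lower after median-ratio rescaling, 4895 and 2465 lower after chromosome centring, 1395 in all, 994 higher and 401 lower with a mean of 5 FPKM or more, 469 lower with no filter, 4516 in all, 3193 higher and 1323 lower in a fit over 36 libraries, and 1470 in all, 1166 higher and 304 lower without day 5 replicate 1 and day 3 replicate 2, a choice made after seeing the data. Leaving out each library gave 1678 to 4357 in all, 1117 to 2303 higher and 510 to 2270 lower, and 3804 to 5268 in all when combined with rescaling. The differences between lines numbered 972 in all, 387 higher and 585 lower after rescaling, 178 and 91 higher with a pseudocount of 0.1, 100 in all, 45 higher and 55 lower with a mean of 5 FPKM or more, and 721 in all, 343 higher and 378 lower after chromosome centring. Leaving out each library gave 159 to 889 in all, 87 to 230 higher and 72 to 659 lower. Among these, leaving out control day 3 replicate 1 gave the highest counts, control day 5 replicate 3 the lowest, and 73, 76 and 77 lower were called without control day 5 replicate 1, LncCPR-/- day 5 replicate 3 and LncCPR-/- day 3 replicate 3. With a mean of 5 FPKM or more the shifts of chromosomes 1, 6 and 8 were 0.24, -0.23 and -0.28; leaving out each library gave 0.201 to 0.222, -0.219 to -0.176 and -0.258 to -0.234, and 0.627 to 0.737 for chromosome Y. The causes of these moves were not tested, beyond the fewer genes or libraries that some alternatives hold. A replicate block by the number in the titles gave 4241 genes, 2965 higher and 1276 lower, and 317 differences between lines. The block was not used for the main counts because the labels do not say what same-numbered libraries share. Deviations of same-numbered libraries correlated at 0.196, 0.081 and 0.103. Those of pairs with different numbers correlated at -0.173 to 0.087. Deviations within a day cancel by construction, so the signs of these correlations are not independent of those of same-numbered pairs. Day 5 replicate 2 correlated best with day 3 replicate 3, at 0.087. An effect shared by same-numbered libraries was not tested. Depth is known only as a ratio estimated from low values. By that estimate the day 5 libraries were deeper, which would limit what can be said of genes near 0 at day 3. Day 3 replicate 2 nevertheless had 23491 entries above 0, against 22862 and 22070 in day 5 replicates 2 and 3.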
